A study of Mus musculus with 24 samples.

Results

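Transcripts of 6 chemokine ligands were followed in splenic Treg subsets of young and old mice: *Ccl3*, *Ccl4*, *Ccl5*, *Cxcl2*, *Cxcl10* and *Xcl1*. They were chosen by name, as rows of the gene table whose Ensembl identifier maps to these symbols, and all 6 were found among its 17464 genes. The mice were WT C57BL/6JRccHsd, 4 young and 4 old (2 and 26 months by the study's text), without any transgene or treatment in the labels. From each spleen resting Treg cells (rTreg, CD62L+ CD44-), activated Treg cells (aTreg, CD62L- CD44+) and KLRG1+ Treg cells (kTreg) were sorted, and each subset gave 1 library of poly(A) RNA, so that the 24 libraries formed 6 groups of 4. The study used both sexes, and the sex of each mouse was not used here. In sorted bulk samples, fewer cells that hold a transcript and less of it per cell cannot be told apart.

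Chemokines are small secreted proteins that attract cells carrying the matching G protein-coupled receptor. CCL3, CCL4 and CCL5 are CC chemokines that draw T cells and monocytes, and CCR1 is a receptor of CCL3 and CCL5. CXCL2 draws neutrophils through CXCR2, CXCL10 is induced by interferon and draws activated T cells through CXCR3, and XCL1 draws cross-presenting dendritic cells through XCR1. In T cells these genes are known as products of activated or memory-like cells, and CCL3 and CCL4 are also products of basophils, mast cells and macrophages.

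The 3 families are named for the cysteines at the start of the mature protein, and the coding sequence around them is shown for 5 of the 6 members to place each transcript in its family. The stretches are from the Ensembl canonical transcript of GENCODE M39 on GRCm39, 39 bases each, read 5′ to 3′ on the coding strand, with the codons of the conserved first cysteines in capitals.
Ccl4: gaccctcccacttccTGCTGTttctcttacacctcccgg
Ccl5: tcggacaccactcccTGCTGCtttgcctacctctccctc
Cxcl2: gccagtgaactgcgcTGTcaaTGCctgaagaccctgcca
Cxcl10: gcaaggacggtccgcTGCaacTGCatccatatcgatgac
Xcl1: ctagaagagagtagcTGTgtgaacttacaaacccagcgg
The cysteine codons of *Ccl4* and *Ccl5* are adjacent, those of *Cxcl2* and *Cxcl10* are parted by 1 codon, and *Xcl1* has a single one.

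On GRCm39, *Ccl3* (ENSMUSG00000000982) lies at chr11:83538670-83540191 on the minus strand, *Ccl4* (ENSMUSG00000018930) at chr11:83553383-83555509 on the plus strand and *Ccl5* (ENSMUSG00000035042) at chr11:83416602-83425942 on the minus strand. *Cxcl2* (ENSMUSG00000058427) lies at chr5:91051730-91053797 on the plus strand, *Cxcl10* (ENSMUSG00000034855) at chr5:92494497-92496748 on the minus strand and *Xcl1* (ENSMUSG00000026573) at chr1:164759213-164763096 on the minus strand. *Ccl3* overlaps the antisense long non-coding RNA *Gm53692*, *Ccl5* overlaps *Gm73713*, *Cxcl10* overlaps *Art3* and *Xcl1* overlaps *Gm20743*, each on the opposite strand. The strand setting of the count is not given in the sources used here, so reads of a ligand and of its partner cannot be told apart. The longest run of identical bases between *Cxcl2* and another chemokine transcript was 157 bases, shared with *Cxcl3*, and reads within it could be assigned to either gene. For the other members such runs were 13 to 15 bases.

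*Ccl5*, *Cxcl2* and *Cxcl10* were, with *Ccl4*, the ligands called higher in kTreg than in rTreg cells of young mice. The 250 bases before their start sites are printed because they hold the letters of the motif of NF-kappaB, a factor of activated T cells, which those of *Ccl4* do not. Capitals mark matches to the kappaB motif in all 3, to the core of the interferon-stimulated response element (ISRE, GAAA and GAAA parted by any 2 bases) in *Cxcl10* and to TATAAA near the start of *Ccl5*, and the last base lies next to the start site.
Ccl5, GRCm39 chr11:83421346-83421595, minus strand: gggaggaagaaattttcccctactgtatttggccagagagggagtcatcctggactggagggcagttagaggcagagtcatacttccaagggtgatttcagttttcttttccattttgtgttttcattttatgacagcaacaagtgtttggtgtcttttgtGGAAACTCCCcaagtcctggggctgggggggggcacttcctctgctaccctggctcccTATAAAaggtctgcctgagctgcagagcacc
Cxcl2, GRCm39 chr5:91051480-91051729, plus strand: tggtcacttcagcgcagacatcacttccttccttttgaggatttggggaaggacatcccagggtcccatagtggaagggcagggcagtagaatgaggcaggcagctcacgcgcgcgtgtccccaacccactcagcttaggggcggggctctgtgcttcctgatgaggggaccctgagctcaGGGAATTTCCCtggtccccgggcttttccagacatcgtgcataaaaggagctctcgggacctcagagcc
Cxcl10, GRCm39 chr5:92496749-92496998, minus strand: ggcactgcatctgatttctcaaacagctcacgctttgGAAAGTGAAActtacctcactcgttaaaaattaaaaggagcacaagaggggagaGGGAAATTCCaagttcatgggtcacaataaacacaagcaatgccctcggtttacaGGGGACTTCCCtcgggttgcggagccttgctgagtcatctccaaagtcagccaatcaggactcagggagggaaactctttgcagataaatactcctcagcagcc
Both strands were searched. The kappaB motif was found 1 time for *Ccl5*, as 2 overlapping matches for *Cxcl2* and 3 times for *Cxcl10*, where 2 matches overlap. It was in 7.53% of the 17353 windows of the same length before the genes of the table, the ISRE in 3.37% and TATAAA in 9.44%. These letters were not in the windows of *Ccl3*, *Ccl4* and *Xcl1*. A match of letters is a description of the window only.

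Values are normalised reads, the reads of a gene divided by 1 size factor per library as deposited, and 1 read was worth 0.694 to 1.32 of them. The libraries held 15045747 to 29521942 reads on listed genes. The Treg marker list (*Cd4*, *Cd3e*, *Foxp3*, *Il2ra*, *Ctla4*, *Ikzf2*) was present in every library, with sums of 47593 to 110382. The libraries of young mouse 2 held the highest B cell marker sums (6782 to 15405, against 489.7 to 2064 in the others), and its kTreg library the highest macrophage and monocyte sum (35542). Young kTreg replicate 4 listed 4913 genes at 0, against 419 to 2756 in the others, and old aTreg replicate 2 had the lowest *Foxp3* value (5079).

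**Figure D1:**
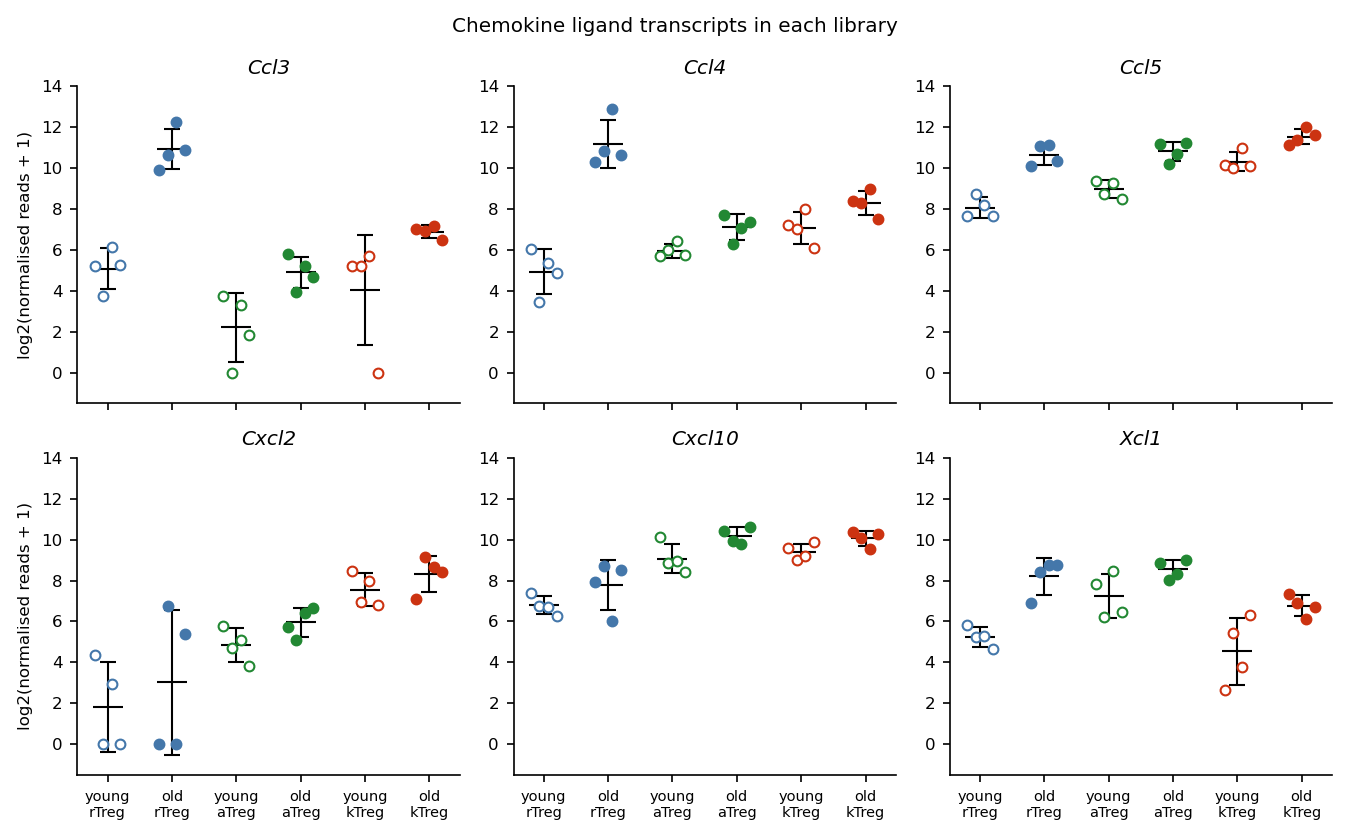
Each point is 1 library, on a log2(normalised reads + 1) scale, with young mice open and old mice filled, and bars give the mean and SD of the 4 libraries on that scale. *Ccl3* and *Ccl4* stand apart in old rTreg cells, *Cxcl2* is highest in kTreg cells at both ages and *Xcl1* is lower in kTreg than in aTreg cells of young mice.

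Differences were tested with limma on log2(value + 1) over 16630 genes in a model of the 6 groups, and a gene was called when its Benjamini-Hochberg adjusted p was below 0.05 and its fold above 1.5. All 6 members passed the filter on low values. Between kTreg and aTreg cells of young mice 2 of 6 were called (6.95% of all genes were), *Ccl5* higher (3.46% of all genes higher) and *Xcl1* lower (3.49% lower). In old mice 0 of 6 were called between these subsets (2.2% of all genes), where 3 of 6 had an unadjusted p below 0.05 and a fold above 1.5, edgeR called 0 and DESeq2 1. Between kTreg and rTreg cells of young mice 4 of 6 were called (15.8% of all genes), *Ccl4*, *Ccl5*, *Cxcl2* and *Cxcl10*, all higher (8.24% of all genes). In old mice also 4 of 6 were called (8.86% of all genes), *Cxcl2* and *Cxcl10* higher (5.77%) and *Ccl3* and *Ccl4* lower (3.09%). Between aTreg and rTreg cells of young mice 1 of 6 was called (3.35% of all genes), *Cxcl10*, higher (2.71%), and in old mice 3 of 6 (8.6% of all genes), *Cxcl10* higher (4.82%) and *Ccl3* and *Ccl4* lower (3.78%).

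With age 4 of 6 were called in rTreg cells (5.83% of all genes), *Ccl3*, *Ccl4*, *Ccl5* and *Xcl1*, all higher (4.12%), and 1 of 6 in aTreg cells (2.71%), *Ccl5*, higher (1.85%). In kTreg cells 0 of 6 were called (1.26% of all genes), where 4 of 6 had an unadjusted p below 0.05 and a fold above 1.5, edgeR called 0 and DESeq2 1. The test of whether a subset difference itself changed with age called 1 of 6, *Ccl4*, for kTreg against rTreg cells (3.02% of all genes, 2.03% in the same direction) and for aTreg against rTreg cells (1.56%, 1.05% in the same direction). For kTreg against aTreg cells it called 0 of 6 (0.156% of all genes), and 0 also at an unadjusted p below 0.05, in edgeR and in DESeq2. The comparisons with a common group share its 4 libraries and are not independent of each other. Groups without overlap of their 4 libraries were found, between kTreg and aTreg cells, for 14.7% of all genes in young and 21.2% in old mice. Between kTreg and rTreg cells these shares were 21.9% and 16.6%, between aTreg and rTreg cells 13.5% and 15.4%, and with age 11.7% in rTreg, 13.4% in aTreg and 10.5% in kTreg cells.

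**Figure D2:**
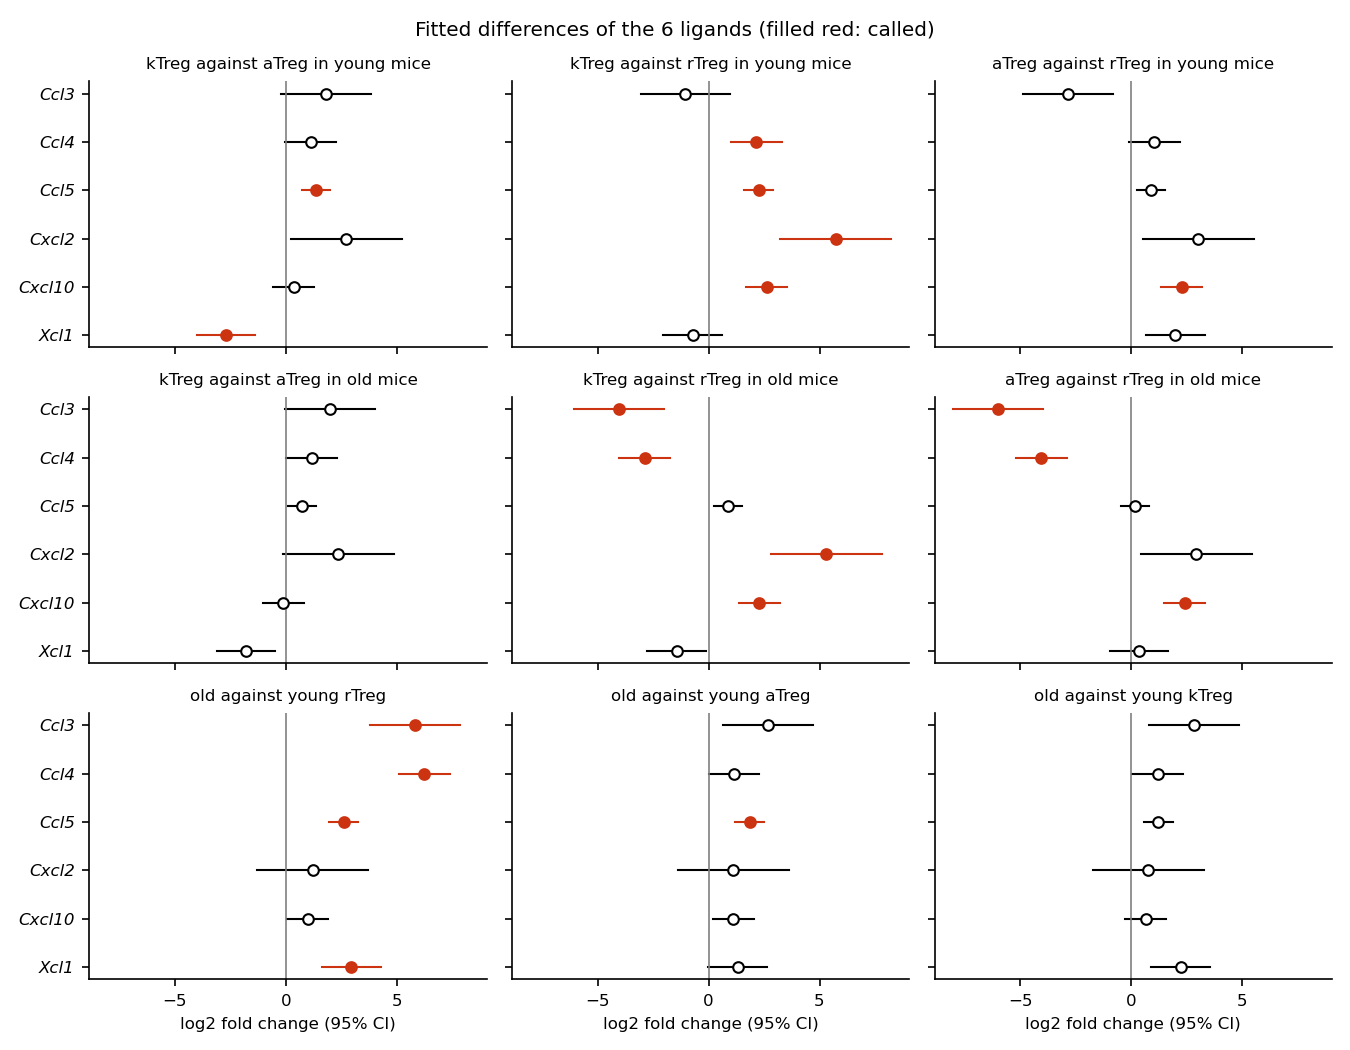
Fitted log2 fold changes of the 6 ligands in the 9 comparisons of 2 groups, with 95% confidence intervals as lines; filled red points were called. *Ccl3* and *Ccl4* stand apart by their high level in old rTreg cells. Their points lie to the left of 0 for kTreg and for aTreg against rTreg cells of old mice. For old against young rTreg cells they lie to the right of 0.

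*Ccl3*, which encodes the CCR1 ligand MIP-1α, was low in most libraries and high in those of old rTreg cells. In rTreg cells the young mice had 36.0, 12.2, 69.9 and 37.1 normalised reads, and the old mice 939, 1596, 4905 and 1896. In aTreg cells the values were 12.3, 0, 8.84 and 2.60 in young mice and 53.6, 14.5, 35.4 and 24.7 in old mice, and in kTreg cells 36.6, 36.3, 51.3 and 0 in young mice and 128, 118, 144 and 88.0 in old mice. Every old library lay above every young library of its subset, and the old rTreg libraries lay above all others. The young kTreg library at 0 is the one with the most genes at 0. The standard error of a difference between 2 groups was 0.98 on the log2 scale.

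Old rTreg cells had more *Ccl3* than young rTreg cells by 5.83 on the log2 scale (adjusted p = 0.00060, limma). Against old rTreg cells it fell by 4.03 in kTreg (adjusted p = 0.010, limma) and by 6.02 in aTreg cells of old mice (adjusted p = 0.00034, limma). The differences with age in aTreg (2.68, adjusted p = 0.18, limma) and in kTreg cells (2.85, adjusted p = 0.16, limma) did not pass the test. Comparing kTreg with aTreg cells gave 1.82 on the log2 scale in the young (adjusted p = 0.28, limma) and 1.99 in the old (adjusted p = 0.32, limma), and in old mice the kTreg library was higher in 4 of 4 mice. Without young kTreg replicate 4 the young value was 3.17 and passed the test (adjusted p = 0.0059, limma), as it did in DESeq2 (2.41, adjusted p = 0.049), and the old value passed with only the groups compared in the model (adjusted p = 0.015, limma). Without young kTreg replicate 4, the difference between aTreg and rTreg cells of young mice (-2.86, adjusted p = 0.12, limma) and the age difference in aTreg cells passed as well (adjusted p = 0.0085 and 0.016, limma). In young mice *Ccl3* in kTreg against rTreg cells was at -1.04 (95% confidence interval -3.06 to 0.98). The interactions with age were -2.99 for kTreg and -3.16 for aTreg against rTreg cells (adjusted p = 0.27 each, limma), and the first passed without young kTreg replicate 4 (-4.33, adjusted p = 0.011, limma), in edgeR (adjusted p = 0.040) and in DESeq2 (adjusted p = 0.019). With a pseudocount of 5 both passed (adjusted p = 0.040 and 0.032, limma).

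*Ccl4*, which encodes the CC chemokine MIP-1β and lies beside *Ccl3* on chromosome 11, followed it in rTreg cells. The young rTreg libraries held 64.7, 9.97, 39.5 and 28.1 normalised reads and the old ones 1236, 1843, 7644 and 1564, with no overlap. The aTreg libraries held 50.1, 62.9, 85.2 and 52.8 in young and 209.9, 76.4, 135 and 165 in old mice. In kTreg cells the values were 148, 128, 251 and 67.7 in young and 332, 306, 494 and 182 in old mice. Unlike *Ccl3*, *Ccl4* in young mice had its lowest mean in rTreg and its highest in kTreg cells, without overlap of these 2 groups.

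The standard error of a difference between 2 groups was 0.55. Old rTreg cells exceeded young ones by 6.23 (adjusted p = 4.0e-07, limma), a fold of 75.2 on the log2(value + 1) scale. In young mice *Ccl4* was higher in kTreg than in rTreg cells by 2.15 (adjusted p = 0.0080, limma) in 4 of 4 mice, whereas in old mice it fell by 2.88 in kTreg against rTreg cells (adjusted p = 0.0017, limma), again in 4 of 4 mice. This difference of direction was itself past the test, with an interaction of -5.03 (standard error 0.78, adjusted p = 0.0012, limma), and so was that of aTreg against rTreg cells, -5.08 (standard error 0.78, adjusted p = 0.0033, limma). In aTreg cells of old mice *Ccl4* fell by 4.04 against rTreg cells (adjusted p = 6.2e-05, limma), while the young value was 1.04 (adjusted p = 0.44, limma). The values of kTreg against aTreg cells were 1.11 in young (95% confidence interval -0.03 to 2.26) and 1.16 in old mice (0.02 to 2.31), and those with age 1.15 in aTreg (0.01 to 2.30) and 1.20 in kTreg cells (0.06 to 2.35), none past the test. The young difference between kTreg and rTreg cells was not past the test without the 3 libraries of young mouse 2 (1.69, adjusted p = 0.063, limma) or with only the groups compared in the model (adjusted p = 0.071, limma).

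Some markers of other cells moved with *Ccl3* and *Ccl4*. Of the 6 basophil and mast cell markers, *Mcpt8*, *Cpa3*, *Fcer1a*, *Ms4a2*, *Prss34* and *Cd200r3*, 6 of 6 were called higher in old than in young rTreg cells, and their sum was 3562 to 9625 normalised reads in old rTreg and 127 to 243 in young rTreg libraries. It was 136 to 296 in old aTreg, 77.5 to 606 in old kTreg, 53.2 to 83.1 in young aTreg and 0.916 to 36.6 in young kTreg libraries. *Mcpt8*, *Ms4a2* and *Prss34* were at 0 in all young aTreg libraries, and *Ms4a2* and *Prss34* in all young kTreg libraries. The 12 macrophage and monocyte markers summed to 10419.8 to 27052 in old rTreg and 629.8 to 9428 in young rTreg libraries, with 0 of 12 called with age by limma (2 at an unadjusted p below 0.05 and a fold above 1.5), and the 11 neutrophil markers reached 16831 and 19560.1 in old rTreg replicates 2 and 3, with 1 of 11, *Mpo*, called higher with age. The platelet markers, of which 5 of 6 were in the table, summed to 451 to 981 in old rTreg and 46.2 to 85.7 in young rTreg libraries. Of these, 1 of 5, the integrin gene *Itga2b*, was called higher with age (4.58, adjusted p = 0.0038, limma). The rise was not shared by *Pf4* (-0.49), *Ppbp* (0.02), *Gp1ba* (-1.68) and *Treml1* (0.01), so the sum does not stand for the list. The part of these markers in the result was not tested. Within old rTreg cells, replicate 3 had the highest *Ccl3*, *Ccl4*, basophil and macrophage values and replicate 1 the lowest *Ccl3*, *Ccl4* and basophil values. Without old rTreg replicate 3, *Ccl3* and *Ccl4* were still higher with age in rTreg cells (log2 fold changes 5.39 and 5.65, adjusted p = 0.0032 and 1.5e-06, limma).

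In old kTreg cells the order of the libraries was another one for *Ccl3* and *Ccl4* than for the basophil markers, while the library highest in both ligands was also the highest in macrophage and monocyte markers. Old kTreg replicate 2 had the highest basophil sum of its group (606) with 118 normalised reads of *Ccl3* and 306 of *Ccl4*, and replicate 3 had the highest *Ccl3* and *Ccl4* values (144 and 494) with a sum of 108. Its macrophage and monocyte sum was 3832, against 2220 to 2355 in the other old kTreg libraries. The young kTreg libraries had *Ccl4* at 67.7 to 251 with sums of at most 36.6. With age 4 of 6 basophil markers were called higher in kTreg cells, and in young mice 4 of 6 were lower in kTreg than in rTreg cells, where *Ccl4* was higher.

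Macrophage and monocyte markers were, as *Ccl3* and *Ccl4* were in most mice, higher in kTreg than in aTreg libraries, and every old kTreg library lay above 3 of the 4 young ones. Their sums were 2220 to 3832 in old kTreg and 259 to 443 in old aTreg libraries, without overlap. In young mice they were 1288, 35542, 1123 and 539 in kTreg and 264, 3325, 276 and 94.4 in aTreg libraries, replicates 1 to 4 in turn, and so higher in kTreg cells of 4 of 4 mice. The young kTreg library with the sum of 35542 held 36.3 normalised reads of *Ccl3* and 128 of *Ccl4*, within the range of its group. Of the 12 markers, limma called 0 between kTreg and aTreg cells of old mice (4 at an unadjusted p below 0.05 and a fold above 1.5). The platelet markers summed to 109 to 501 in old kTreg and 0.916 to 59.3 in young kTreg libraries, with 0 of 5 called with age by limma (5 at an unadjusted p below 0.05 and a fold above 1.5). The part of these markers in the *Ccl3* and *Ccl4* values of kTreg cells was not tested.

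**Figure D3:**
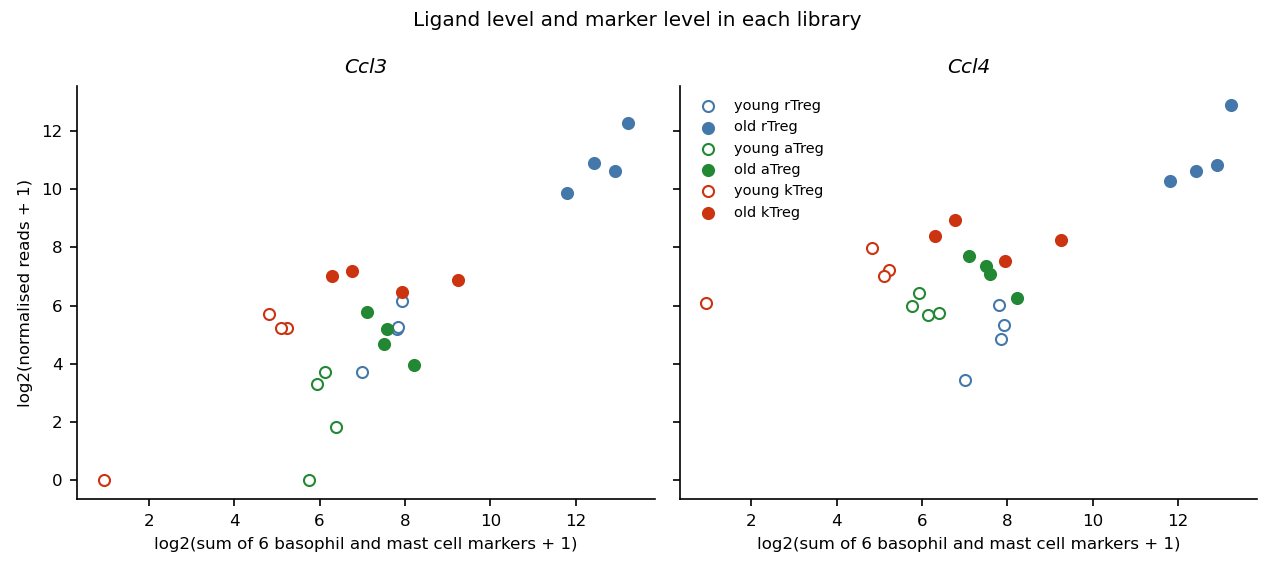
*Ccl3* and *Ccl4* in each library (y axis) against the summed level of 6 basophil and mast cell markers in the same library (x axis), both as log2(normalised reads + 1), with young mice open and old mice filled. The 4 old rTreg libraries lie apart at the upper right in both panels.

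*Ccl5* encodes RANTES, a ligand of CCR1 and CCR3 made by memory T cells and NK cells. Per kilobase of all annotated exon bases, *Ccl5* had the highest mean level of the members in every group but old rTreg cells. It was higher in kTreg than in both other subsets of young mice and rose with age in rTreg and aTreg cells. The rTreg libraries of young mice held 197, 426, 293 and 200.7 normalised reads and those of old mice 1096, 2156, 2199 and 1283. The aTreg libraries held 662, 415, 621 and 357 in young and 2286, 1183, 1629.8 and 2383 in old mice. In kTreg cells the values were 1136, 1037, 2017 and 1095 in young and 2224, 2654, 4151 and 3144 in old mice. No old library overlapped the young libraries of the same subset, and young kTreg libraries all lay above young aTreg and rTreg libraries.

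The standard error of a difference between 2 groups was 0.31. In young mice *Ccl5* was higher in kTreg than in aTreg cells by 1.35 (adjusted p = 0.0077, limma) and higher than in rTreg cells by 2.26 (adjusted p = 1.6e-05, limma), in 4 of 4 mice each. Without the 3 libraries of young mouse 2 these values were 1.36 (adjusted p = 0.021, limma) and 2.58 (adjusted p = 3.4e-05, limma). In old mice the kTreg values were 0.72 above aTreg (95% confidence interval 0.08 to 1.36, adjusted p = 0.24, limma) and 0.88 above rTreg cells (0.24 to 1.52, adjusted p = 0.073, limma), higher in 3 and in 4 of 4 mice, and neither passed the test. The second of these passed without old rTreg replicate 2 (1.02, adjusted p = 0.045, limma) and in DESeq2 (0.85, adjusted p = 0.049). The aTreg and rTreg cells of old mice differed by 0.16 (95% confidence interval -0.48 to 0.81, adjusted p = 0.81, limma), and those of young mice by 0.90 (adjusted p = 0.13, limma), past the test without young rTreg replicate 2 (1.13, adjusted p = 0.048, limma).

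With age *Ccl5* rose by 2.59 in rTreg (adjusted p = 2.0e-05, limma) and by 1.86 in aTreg cells (adjusted p = 0.0011, limma). In kTreg cells the value was 1.22 (95% confidence interval 0.58 to 1.86, adjusted p = 0.051, limma), not past the threshold, although the 4 old libraries lay above the 4 young ones. It passed in 5 of the 24 fits that left out 1 library (adjusted p = 0.028 to 0.046, limma), those without old rTreg replicate 1 or 3, old aTreg replicate 2, young rTreg replicate 2 or young kTreg replicate 3, and also with a pseudocount of 5 (adjusted p = 0.042, limma), a filter at 50 (adjusted p = 0.049, limma) and in DESeq2 (adjusted p = 0.0080). The interaction of age with kTreg against rTreg cells was -1.37 (adjusted p = 0.093, limma), and it passed without young rTreg replicate 2 (-1.60, adjusted p = 0.040, limma) and in DESeq2 (-1.39, adjusted p = 0.037). The 6 measured NK cell markers, cells that also make *Ccl5*, summed to 823 to 1924 in old rTreg and 276 to 584 in young rTreg libraries, with 1 of 6, *Klrb1c*, called higher, and their part in the result was not tested. In old kTreg cells, where *Ccl5* was highest, the sum was 384 to 729.

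*Cxcl2*, which encodes the CXCR2 ligand MIP-2, was highest in kTreg cells at both ages and near 0 in several rTreg libraries. The young rTreg libraries held 19.5, 0, 6.59 and 0 normalised reads and the old ones 0, 107, 0 and 40.4. The aTreg libraries held 53.5, 25.0, 33.0 and 13.0 in young and 51.8, 33.1, 83.4 and 98.9 in old mice. In kTreg cells the values were 357, 121, 251 and 112 in young and 135, 572, 403 and 339 in old mice. At each age the lowest kTreg library lay above the highest aTreg and the highest rTreg library.

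Against rTreg cells, *Cxcl2* in kTreg cells was 5.73 higher in the young (standard error 1.21, adjusted p = 0.0016, limma) and 5.30 higher in the old (standard error 1.21, adjusted p = 0.0069, limma), in 4 of 4 mice each. Since 2 rTreg libraries of each age were at 0, the sizes depend on the pseudocount, and with one of 5 they were 4.39 and 4.11. For old mice the call was lost in edgeR (3.30, adjusted p = 0.086) and with only the groups compared (adjusted p = 0.062, limma). Against aTreg cells the difference of kTreg cells was 2.71 in the young (adjusted p = 0.18, limma) and 2.37 in the old (adjusted p = 0.34, limma), neither past the test, although the kTreg library was the higher one in 4 of 4 mice at each age. With only the groups compared in the model both passed (adjusted p = 0.040 and 0.015, limma), and with a pseudocount of 5 the young one did (2.54, adjusted p = 0.049, limma). The aTreg and rTreg cells differed by 3.02 in the young (adjusted p = 0.22, limma) and 2.93 in the old (adjusted p = 0.13, limma), the latter past the test without old rTreg replicate 2 (4.17, adjusted p = 0.019, limma). With age the values were 1.21 in rTreg, 1.12 in aTreg and 0.78 in kTreg cells, with 95% confidence intervals from -1.29 to 3.71, -1.38 to 3.63 and -1.73 to 3.28.

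The *Cxcl2* values of the kTreg libraries were set beside the immediate early genes, a list of 20 genes that T cell receptor signals and cell handling raise within an hour. Their sums in the young kTreg libraries were 139288, 71866, 109792 and 93354 normalised reads in replicates 1 to 4, and in the old ones 102777, 229689, 152204 and 128297. In old mice the order of the libraries was the same for both, from replicate 2 down to replicate 1, and in young mice replicates 1 and 3 were highest for both. Between kTreg and aTreg cells of old mice 4 of 20 were called higher, namely the nuclear receptor *Nr4a1* (log2 fold change 1.10) and the NF-kappaB and mRNA decay regulators *Nfkbid* (0.80), *Tnfaip3* (1.15) and *Zfp36* (1.21), and in young mice limma called 0 of 20 (1 at an unadjusted p below 0.05 and a fold above 1.5). The list's median was 0.39 in old and 0.12 in young mice, beside 0.01 and -0.12 over all genes tested. The macrophage and monocyte marker sums also lay higher in kTreg than in aTreg libraries, as given for *Ccl3* and *Ccl4*. The neutrophil sums in old mice were 51.3, 1677, 1274 and 32.8 in kTreg and 273, 75.4, 145 and 7.81 in aTreg libraries, with kTreg replicates 2 and 3 highest for both these markers and *Cxcl2*. In young mice the kTreg library with the macrophage sum of 35542 held 121 normalised reads of *Cxcl2*, the second lowest of its group. The part of the immediate early genes and of these markers in the *Cxcl2* values was not tested.

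**Figure D4:**
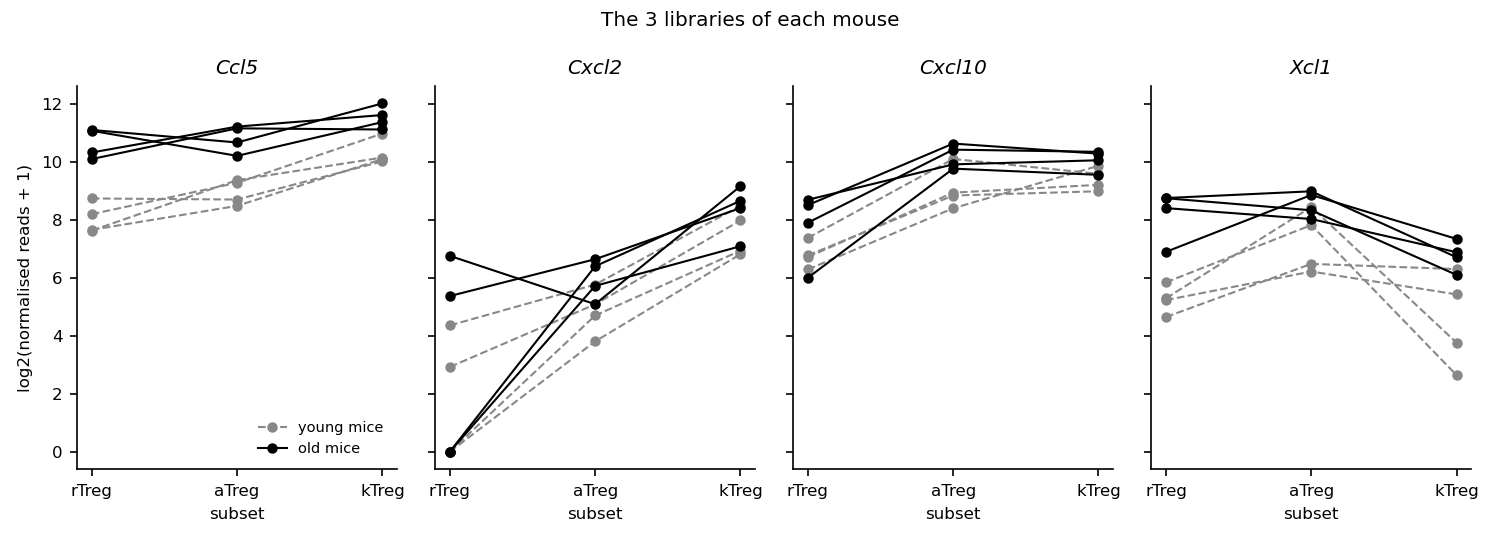
Each line joins the 3 libraries of 1 mouse for 4 ligands, on a log2(normalised reads + 1) scale, with young mice dashed grey and old mice solid black. *Cxcl2* lines end highest in kTreg cells in all mice, *Cxcl10* lines rise between rTreg and aTreg cells, and *Xcl1* lines fall between aTreg and kTreg cells.

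*Cxcl10*, which encodes the interferon-induced CXCR3 ligand IP-10, was higher in both antigen-experienced subsets than in rTreg cells. The rTreg libraries held 165, 109, 104 and 77.3 normalised reads in young and 238, 413, 63.1 and 364 in old mice. The aTreg libraries held 1098, 457, 490.3 and 337 in young and 1373, 965, 871 and 1588 in old mice, and the kTreg libraries 769, 507, 591 and 933 in young and 1302, 1064, 751 and 1247 in old mice. Within each age every aTreg and kTreg library lay above every rTreg library, while the aTreg and kTreg libraries overlapped.

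The standard error of a difference between 2 groups was 0.44. Against rTreg cells *Cxcl10* in kTreg cells was 2.62 higher in the young (adjusted p = 0.00019, limma) and 2.28 higher in the old (adjusted p = 0.0019, limma). In aTreg cells it was 2.28 higher in the young (adjusted p = 0.0032, limma) and 2.41 higher in the old (adjusted p = 0.0012, limma), each time in 4 of 4 mice. Between kTreg and aTreg cells the values were 0.34 in young (95% confidence interval -0.58 to 1.26) and -0.12 in old mice (-1.04 to 0.80). With age they were 0.99 in rTreg, 1.11 in aTreg and 0.65 in kTreg cells (adjusted p = 0.19, 0.24 and 0.46, limma), and without old rTreg replicate 3, the lowest of its group, the rTreg value was 1.58 (adjusted p = 0.0080, limma), and in DESeq2 it was 1.24 (adjusted p = 0.034). Of 15 measured interferon-stimulated genes, limma called 0 between aTreg and rTreg cells at either age (1 in young and 2 in old mice at an unadjusted p below 0.05 and a fold above 1.5), and the list's medians were -0.27 (young) and -0.15 (old), beside 0.02 and 0.11 over all genes tested. The genes of smallest p in young mice were *Usp18* (-0.79), *Ifi27l2a* (-0.59), *Oas1a* (0.38) and *Gbp4* (0.35). In kTreg against rTreg cells of young mice the antiviral *Oas1a* was higher (1.29) and *Usp18* (-1.66) and *Gbp2* (-0.66) lower, and in old mice *Usp18* was lower (-1.23). Of all genes 15.8% were called between these subsets in young and 8.86% in old mice. The part of interferon in the *Cxcl10* values was not tested.

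*Xcl1*, which encodes lymphotactin, the ligand of XCR1, was the one member called lower in kTreg than in aTreg cells of young mice. The rTreg libraries held 56.5, 36.6, 38.2 and 24.1 normalised reads in young and 118, 338, 429 and 431 in old mice. The aTreg libraries held 225, 73.4, 347 and 88.3 in young and 463, 260.3, 321 and 506 in old mice. In kTreg cells the values were 5.23, 42.1, 12.6 and 77.8 in young and 161, 117, 67.6 and 104 in old mice. The old aTreg and kTreg libraries did not overlap, and in young mice the highest kTreg library lay between the 2 lower aTreg libraries.

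The standard error of a difference between 2 groups was 0.64. In young mice *Xcl1* fell by 2.71 in kTreg against aTreg cells (adjusted p = 0.0092, limma), in 4 of 4 mice. With only the groups compared in the model this was not past the test (adjusted p = 0.16, limma). In old mice the value was -1.79 (adjusted p = 0.15, limma), also lower in 4 of 4 mice, and it passed in DESeq2 (adjusted p = 0.033) and with only the groups compared (adjusted p = 0.0088, limma). The aTreg cells of young mice were 1.99 above rTreg cells (adjusted p = 0.092, limma), a difference past the test without young kTreg replicate 1 or 4 (adjusted p = 0.048 and 0.030, limma), with only the groups compared (adjusted p = 0.042, limma), in edgeR (adjusted p = 0.046) and in DESeq2 (adjusted p = 0.0039), whereas in old mice the value was 0.35 (95% confidence interval -0.97 to 1.67). The kTreg against rTreg values were -0.72 in young and -1.44 in old mice (adjusted p = 0.46 and 0.16, limma).

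With age *Xcl1* rose by 2.95 in rTreg cells (adjusted p = 0.0061, limma), where the 4 old libraries lay above the 4 young ones. In aTreg cells the value was 1.31 (adjusted p = 0.40, limma) and in kTreg cells 2.23 (adjusted p = 0.086, limma). Without young kTreg replicate 4 the kTreg value was 2.82 and passed the test (adjusted p = 0.017, limma). NK cells are a known source of *Xcl1*, and their marker sums in rTreg cells are those given for *Ccl5*. In aTreg cells they were 663 to 739.6 in young and 499 to 1519 in old mice, and in kTreg cells 274 to 686 and 384 to 729. Their part in the result was not tested.

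Per kilobase of exon, the mean order of the members differed between the groups, as a description. Exon lengths were the union of exons over all annotated transcripts of a gene. For *Cxcl2* (2068 bases) and *Cxcl10* (2252 bases) this union spans the whole gene, which lowers their values per kb. Their places in the orders depend on this choice of length. In old rTreg cells *Ccl4* led (4471 normalised reads per kb), then *Ccl3* (3008), *Ccl5* (1639), *Xcl1* (629), *Cxcl10* (119.7) and *Cxcl2* (17.8), but the spread between mice (SD 4451 for *Ccl4* and 2268 for *Ccl3*) exceeded the gaps between the first 3. In old kTreg cells *Ccl5* led by far (2963, SD 807), ahead of *Cxcl10* (485, SD 110.4) and *Ccl4* (479, SD 187), whose means lay within their spread, then *Xcl1* (215), *Cxcl2* (175) and *Ccl3* (154). In old aTreg cells the order was *Ccl5* (1821, SD 552), *Xcl1* (741), *Cxcl10* (532), *Ccl4* (213), *Ccl3* (41.3) and *Cxcl2* (32.3). In young kTreg cells it was *Ccl5* (1286), *Cxcl10* (311), *Ccl4* (217), *Cxcl2* (102), *Xcl1* (65.8) and *Ccl3* (40.0).

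Across the 24 libraries the members did not follow 1 pattern, by Pearson's r of log2(value + 1), a description in which the libraries of a mouse and of a group share their source. *Ccl3* and *Ccl4* had r = 0.83, and *Cxcl2* and *Cxcl10* also 0.83. *Ccl5* had values in between with all 4, 0.65 with *Ccl4*, 0.61 with *Cxcl10*, 0.58 with *Cxcl2* and 0.44 with *Ccl3*. *Xcl1* had r between -0.03 and 0.42 with the other members. The genes most like *Ccl3* were its antisense partner *Gm53692* (0.96), the integrin gene *Itga2b* (0.94) and *Cyp11a1* (0.91). Those most like *Ccl4* were *D430036J16Rik* (0.87), the granule protease gene *Ctsg* (0.85) and *Gm53692* (0.84). For *Ccl5* they were *Lilrb4a* and *Lilrb4b*, near-identical genes of inhibitory receptors whose reads may be split between them (0.92 each), and *Spsb3* (0.91). For *Cxcl2* they were *Cnrip1* (0.92), *Pbxip1* (0.88) and *B4galt4* (0.87), for *Cxcl10* *Ryk* (0.93), *Id2* (0.92) and *Ier5l* (0.92), and for *Xcl1* *Tspan3* (0.83), *Hpcal1* (0.83) and *1810009J06Rik* (0.81).

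Receptors of the members were measured in the same cells, and 5 of 7 listed genes were in the table. *Cxcr3*, the receptor of CXCL10, held 732 to 1575 normalised reads in young rTreg libraries and 3676 to 15559 in the young and old aTreg and kTreg libraries. It was higher in kTreg (2.23) and aTreg (2.22) than in rTreg cells of young mice, and rose with age in rTreg (2.37) and aTreg cells (1.32). *Ccr1* and *Ccr3*, which bind CCL3 or CCL5, were higher in kTreg than in aTreg cells of young mice (2.67 and 5.26) and of old mice (2.69 and 4.95). *Ccr1* also rose with age in rTreg cells (3.77), and in old mice it was not higher in kTreg than in rTreg cells (-0.52). The basophil markers rose with age in rTreg cells too, and their part in the *Ccr1* values was not tested.

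*Cxcr2*, the receptor of CXCL2 on neutrophils and basophils, held 478, 396, 1608 and 729 normalised reads in old rTreg cells and at most 29.7 in old aTreg and kTreg cells, and it rose with age in rTreg cells (5.07), where the young values were 5.14, 245, 11.9 and 8.03. *Xcr1*, the receptor of XCL1 on dendritic cells, was at 0 to 112 and was not called in any comparison. Of the 5 receptors, 2 were called higher in kTreg than in aTreg cells at each age. Of all genes 3.46% were higher there in young mice, and 2.2% were called in either direction in old mice. In young mice 3 were higher in kTreg than in rTreg cells (8.24% of all genes). With age 3 were higher in rTreg cells (4.12% of all genes). The medians of the list in these 4 comparisons were 0.15, 2.01, 2.23 and 2.45, beside -0.12, 0.01, -0.14 and -0.08 over all genes tested. In old mice *Ccr1* (-3.21), *Ccr3* (-2.77) and *Cxcr2* (-8.91) were called lower in aTreg than in rTreg cells, and *Cxcr3* higher (1.18). Between kTreg and rTreg cells of old mice no receptor was called higher and *Cxcr2* was called lower (-6.91). The age interaction of kTreg against rTreg cells called *Ccr1* (-5.06) and *Cxcr3* (-1.72), in the direction of *Ccl4*.

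Among 31 other chemokine ligands of the list, 14 were in the table. *Ccl6* and *Ccl9*, myeloid CCR1 ligands, were, like *Ccl3*, higher in old rTreg than in young rTreg and in old aTreg and kTreg cells. *Ccl9* held 1319, 1005, 4346 and 2197 normalised reads in old rTreg cells, 34.9 to 66.5 in young rTreg cells and 2.07 to 13.0 in old aTreg cells, and it rose with age in rTreg cells by 5.28 (adjusted p = 0.0024, limma). *Ccl6* held 1916 to 9345 in old and 83.2 to 435 in young rTreg cells, a rise of 4.58 (adjusted p = 0.036, limma). Both moved with the basophil and macrophage sums given above, whose part was not tested.

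*Ccl1*, a CCR8 ligand made by activated T cells, was low in rTreg cells (0 to 21.6) and held 62.8 to 402 in the other groups. Its log2 fold changes against rTreg cells were 3.22 and 4.34 for kTreg and aTreg cells of young mice and 5.30 and 4.96 in old mice, all called. *Cxcl3*, which shares sequence with *Cxcl2*, was higher in kTreg than in rTreg cells by 4.54 in young and 4.76 in old mice, with 38.2 to 143 normalised reads in kTreg and at most 14.6 in rTreg libraries. *Cx3cl1* was called higher than in rTreg cells in young aTreg (5.09), old aTreg (3.49) and old kTreg cells (5.76), and *Cxcl11*, another CXCR3 ligand, in old aTreg cells (3.74).

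*Ccl20*, the CCR6 ligand, was higher in aTreg than in both other subsets of young mice. It held 58.1 to 98.7 normalised reads in young aTreg, 0 to 5.23 in young kTreg and 1.32 to 7.75 in young rTreg libraries, and fell by 5.70 in kTreg against aTreg cells (adjusted p = 0.0028, limma). In old mice 3 of 4 kTreg libraries held at most 9.43 and the fourth 53.8, against 32.0 to 70.3 in aTreg libraries, and old rTreg replicate 1 held 78.1. Of the 14 ligands 0 were called higher and 1 lower in kTreg than in aTreg cells of young mice, with a median of -1.03 beside -0.12 over all genes tested.

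**Figure D5:**
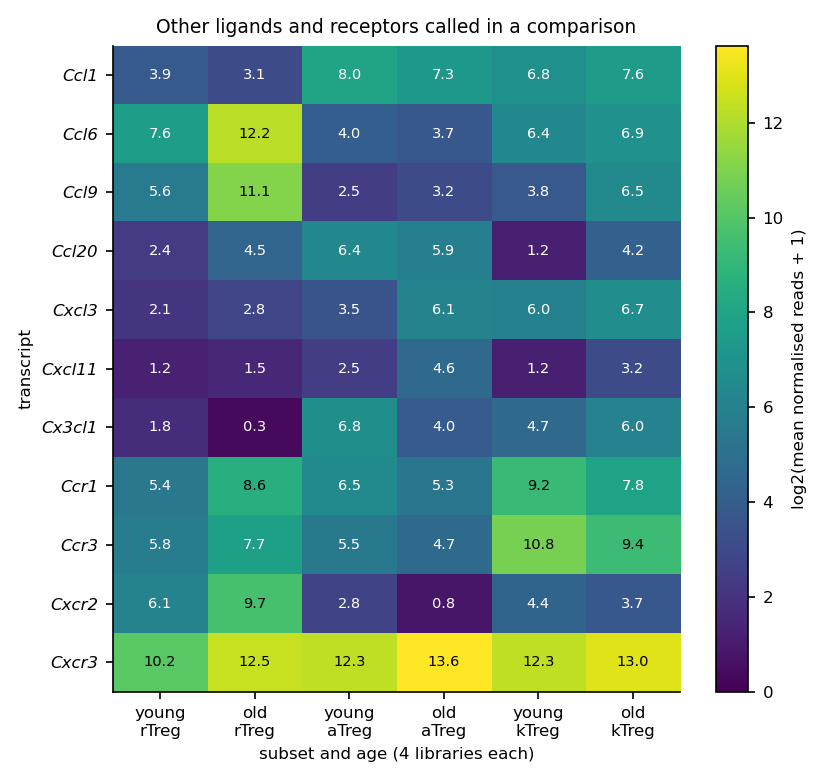
Colours and numbers give log2(mean normalised reads + 1) over the 4 libraries of each group for the 7 other chemokine ligands and 4 receptors called in at least 1 comparison. *Ccl6*, *Ccl9* and *Cxcr2* are highest in old rTreg cells, *Ccr3* in kTreg cells and *Cxcr3* in old aTreg cells.

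Of 18 transcription factors linked to chemokine genes, 4 were called higher and 2 lower in kTreg than in rTreg cells of young mice. Of all genes 15.8% were called there, 8.24% higher. *Prdm1*, which encodes the effector Treg factor BLIMP1, had the smallest p (4.01, adjusted p = 7.8e-08, limma), and *Tbx21*, which encodes T-bet (2.07), and the NF-kappaB gene *Nfkb2* (0.79) were also higher, while *Klf13*, known as a factor of the *Ccl5* promoter, was lower (-1.01). Between kTreg and aTreg cells of young mice, where *Ccl5* was higher and *Xcl1* lower, *Prdm1* was higher (1.97) and *Eomes* lower (-4.52), with 20.9, 22.9, 25.1 and 0 normalised reads of *Eomes* in kTreg and 244, 228, 218 and 306 in aTreg libraries. *Eomes* is also one of the NK cell markers. In rTreg cells *Tbx21* (2.38), *Prdm1* (1.51) and *Hlx* (3.42) rose with age, 3 of 18 (4.12% of all genes were higher). The medians of the list were 0.17, -0.04 and 0.19 in these 3 comparisons, beside -0.14, -0.12 and -0.08 over all genes tested. The part of these factors in the ligand values was not tested.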

How the data were processed

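The 24 libraries of sorted splenic Treg subsets were prepared by the authors from poly(A) RNA (SMART-Seq v4 kit, no molecular identifiers). Per the labels and methods, paired-end reads were aligned to GRCm39 with HISAT2 2.2.1, handled with SAMtools 1.13, counted per gene with HTSeq 1.99.2 and normalised with DESeq2 1.44.0. The deposited values are a normalised signal, reads divided by 1 size factor per library, and every listed gene holds a total of 100 reads or more. The annotation release, the strand and the treatment of multi-mapping reads are not given in the sources used here. A second deposited table of library names was not used, and 0 columns belonged to other samples.

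Whole reads were recovered from the steps between values, where all values were whole within 0.001 reads (largest deviation 6.1e-05). On these reads edgeR called 31 to 2421 genes per comparison. GENCODE M39 on GRCm39 gave symbols and positions for 17353 of 17464 identifiers, and sequences came from that genome. limma 3.58.1 (R 4.3.3, trend option) was fitted to log2(value + 1) of the 16630 genes that reached 10 in 4 or more libraries, in a model of 6 groups, with 12 comparisons, 3 of them interactions with age. Python 3.11.15 with numpy 2.4.6, pandas 2.3.3 and matplotlib 3.10.9 was used for the other steps. P-values are two-sided and measure the spread between the libraries of a group, pooled over the 6 groups. Each library is 1 subset of 1 mouse, and the main model does not hold the mouse. The fits were also run on simulated data. Those libraries were drawn independently, without a mouse effect, an outlying library or cells of other types, so the run cannot show how these affect the calls. Alternatives were pseudocounts of 0.5 and 5, no filter and one at 50, the mouse as a block, only the groups compared, TMM scaling, edgeR 4.0.16 and DESeq2 1.42.0 on recovered reads, unadjusted p-values, no fold threshold, and fits without single libraries, without 2 libraries that stand apart or without young mouse 2.

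The members, lists and alternatives were chosen with earlier results of these data known. Besides the members, genes were named when they were other ligands or receptors called in any comparison, the 3 genes with the highest correlation to a member, and up to 4 genes of smallest adjusted p from the other lists. A receptor gene of the list, a marker gene and a coding stretch are not reported here.

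The design text states that the 3 subsets came from the same mice, so replicate numbers pair the libraries. Deviations from group means had a median correlation, within a mouse, of 0.15 (rTreg and aTreg), 0.091 (rTreg and kTreg) and 0.12 (aTreg and kTreg), against -0.033, -0.034 and -0.051 between mice of 1 age. No replicate libraries agreed within sampling noise.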

Additional observations from a re-analysis of the deposited data

Results flagged for a closer look

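Of 36 tests for an outlying library in a group of 4, 2 passed Dixon's 95% critical value, and chance gives about 1 in 20. These tests took the normalised reads without the log2 of the fits, so the flags hold for that scale only. *Ccl3* in young kTreg replicate 4, at 0 against 36.3 to 51.3 in the others, was not among the 2. *Ccl4* in old rTreg replicate 3 was at 7644 normalised reads, against 1236, 1564 and 1843 in the others, and *Ccl5* in young kTreg replicate 3 was at 2017, against 1037 to 1136. The difference of *Ccl4* between kTreg and rTreg cells differed between the ages by -5.03 on the log2 scale (adjusted p = 0.0012, limma), and that between aTreg and rTreg cells by -5.08 (adjusted p = 0.0033, limma).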

How the results depend on the processing

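Over 72 results (6 members in 12 comparisons) under 37 alternatives, 2591 values kept their side of the threshold, 68 passed it anew, 5 lost it and 0 called values changed sign. The counts of members called moved by more than 1.5 times in 6 comparisons. In others the moves were smaller, and leaving out single libraries gave 2 to 3 for kTreg against aTreg cells of young mice, 4 to 5 for kTreg against rTreg cells of old mice, 3 to 4 for aTreg against rTreg cells of old mice and 4 to 5 with age in rTreg cells, while the young difference of *Ccl4* between kTreg and rTreg cells was lost under 2 alternatives. For kTreg against aTreg cells of old mice the count of 0 became 3 with only the groups compared, 1 in DESeq2 and 3 with unadjusted p-values. For aTreg against rTreg cells of young mice the count of 1 became 2 with only the groups compared, 2 in edgeR, 3 in DESeq2, 5 with unadjusted p-values and 3 without the 2 libraries that stand apart (young kTreg replicate 4 and old aTreg replicate 2), and leaving out single libraries gave 1 to 3. For old against young aTreg cells the count of 1 became 4 with unadjusted p-values and 2 without the 2 libraries, and 1 to 2 without single libraries. For old against young kTreg cells the count of 0 became 1 with a pseudocount of 5, a filter at 50, DESeq2 or without the 2 libraries, and 4 with unadjusted p-values, and 0 to 1 without single libraries. For the interaction of kTreg against rTreg cells the count of 1 became 2 with a pseudocount of 5, in edgeR, without the 2 libraries or without young mouse 2, and 3 in DESeq2 or with unadjusted p-values, and 1 to 2 without single libraries. For that of aTreg against rTreg cells it became 2 with a pseudocount of 5 or unadjusted p-values. The causes were not tested. With the mouse as a replicate block (correlation 0.062) the counts of members called in the comparisons of the report were 2, 0, 4, 4, 1 and 3 between subsets, 4, 1 and 0 with age and 0, 1 and 1 for the interactions, and the block changed no call of a member. Of all genes, the model with only the groups compared called 625 in place of 1156 for kTreg against aTreg cells of young and 1261 in place of 366 of old mice, 1033 in place of 557 for aTreg against rTreg cells of young mice, 478, 767 and 57 in place of 970, 451 and 209 with age in rTreg, aTreg and kTreg cells, and 16 and 287 in place of 26 and 503 for the interactions of kTreg against aTreg and rTreg cells. DESeq2 called 708 in place of 366 (kTreg against aTreg, old), 860 in place of 557 (aTreg against rTreg, young), 702 and 430 in place of 451 and 209 (age, aTreg and kTreg), and 135, 848 and 628 in place of 26, 503 and 259 (interactions of kTreg against aTreg, kTreg against rTreg and aTreg against rTreg), and edgeR 109 in place of 209 with age in kTreg cells. Without the 2 libraries that stand apart the counts were 2325, 989, 1829, 10 and 796 in place of 1474 (kTreg against rTreg, old), 557 (aTreg against rTreg, young), 970 (age, rTreg), 26 and 503 (interactions of kTreg against aTreg and rTreg), and without young mouse 2 320 in place of 209 (age, kTreg). Leaving out only young kTreg replicate 4 gave 1763 in place of 970 genes with age in rTreg cells and 2276 in place of 1474 for kTreg against rTreg cells of old mice. TMM scaling moved the median of all genes by at most 0.03. Reads of low members are few (0 to 103 for *Cxcl2* in rTreg libraries), which limits the fold changes against them.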
